A study of Mus musculus with 6 samples.

Results

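The genes of activin-Nodal and BMP signaling were compared between WT ASCs and *Bdh2*-knockout ASCs. They were taken as the rows of the count table whose gene name is on a list of 53 genes, out of 54715 genes in all. The list holds 14 ligands, 13 receptors and co-receptors, 8 antagonists, 12 SMADs and regulators of SMADs, and 6 target genes. *Lefty2*, which encodes a secreted inhibitor of Nodal, fell to 37.3% of the WT level in *Bdh2*-knockout ASCs, while its neighbour *Lefty1* and the ligand gene *Nodal* rose 1.83-fold and 1.78-fold. The activin antagonist gene *Fst* rose as well, and the BMP antagonist gene *Grem1*, nearly absent in WT, was counted at a low level in knockout ASCs. *Id1*, *Id2* and *Id3*, the classical target genes of BMP signaling, rose between 1.62-fold and 1.87-fold, whereas the SMAD genes differed by much less.

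Ligands of this family bind pairs of type I and type II receptor kinases, and the type I receptor phosphorylates receptor SMADs, which enter the nucleus together with SMAD4. Activin, Nodal and TGF-beta act through SMAD2 and SMAD3, whereas BMPs act through SMAD1, SMAD5 and SMAD9. Nodal, GDF1 and GDF3 also need a co-receptor of the Cripto family. Several targets of the pathway, among them the Lefty genes, *Smad7* and *Nodal* itself, feed back on it, and in pluripotent cells BMP signals are known for inducing Id genes, which encode inhibitors of differentiation factors.

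ASCs are mouse embryonic stem cells held in an advanced pluripotent state. The cells came from a female 129/sv mouse and a male carrying the GOF/GFP transgene, a GFP reporter driven by *Oct4* regulatory sequence. Both genotypes, labelled wild type and Bdh2-/-, were grown on fibronectin in N2B27 medium to which activin A, BMP4, the GSK3 inhibitor CHIR99021 and LIF were added, so all cells received ligands of both branches from outside. Knockout lines were expanded from single CRISPR/Cas9-edited colonies that lost part of the *Bdh2* coding sequence on both alleles. The paper states that ASCs with a single bi-allelic deletion were chosen for its later work, but the labels do not name the clone of each sample. If the 3 knockout samples share a clone, traits of that clone cannot be told apart from the loss of *Bdh2*. Each genotype had 3 replicates, and since nothing says that these were separate cultures, p-values measure only the spread between these samples. In bulk RNA, fewer cells of a type and less RNA per cell cannot be told apart.

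The libraries held 18927748 to 28333541 counts on genes. A floor of 3 counts corresponds to 0.106 to 0.158 CPM (the count scaled to the library size, here the total without TMM factors). *Grem1* was counted below this floor in a WT library. *Bdh2* fell to 57.7% of the WT level, from 9.42 ± 1.10 to 5.43 ± 0.484 CPM (SD, n = 3; edgeR adjusted p = 2.46e-04). A gene count does not read the deleted stretch on its own. All 15 markers of embryonic stem cells were detected, 10 higher and 1 lower in knockout ASCs, with a summed level of 8026 to 8316 CPM in WT and 8592 to 8697 CPM in knockout libraries. The counts of called markers in this paragraph are to be read against all tested genes, of which 41.7% were called, 21.0% higher and 20.8% lower. Markers of primitive endoderm moved with the genotype: 14 of 17 tested were higher and 3 lower, and their sum was 412 to 457 CPM in WT and 933 to 1048 CPM in knockout libraries. Of 9 tested mesendoderm markers 6 were higher and 1 lower, with sums of 134 to 163 and 146 to 174 CPM and *Cer1* at 0. All 7 primed epiblast markers were higher (381 to 427 against 582 to 607 CPM). Of 19 tested hepatocyte markers 15 were lower and 1 higher, with a sum that varied within genotypes, from 241 to 718 CPM in WT and from 239 to 400 CPM in knockout libraries. Of 8 tested fibroblast markers 2 were lower and 0 higher (1646 to 1825 against 1399 to 1491 CPM). The part of these marker genes in the results below was not tested, except that hepatocyte transcripts were used as a covariate.

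Of the 53 genes, 49 passed the filter on low counts and were tested. By edgeR's quasi-likelihood test (Benjamini-Hochberg adjusted p under 0.05, over 16758 genes), 19 were higher in *Bdh2*-knockout ASCs and 3 were lower, or 44.9% called, while 41.7% of all tested genes were called. By direction, 38.8% of the tested members were higher, beside 21.0% of all tested genes, and 6.12% were lower, beside 20.8%. The median log2 fold change was 0.16 over the members and -0.01 over all tested genes. For 28 of the 49 members (57.1%) the libraries of the genotypes did not overlap, and the same held for 52.4% of all tested genes. For such a gene the two-sided exact permutation p is 0.1, the smallest that 3 against 3 allows. At least 2-fold differences were called for *Fst* (higher, as for 2.05% of all tested genes) and *Lefty2* (lower, as for 3.23%). *Grem1* was also called, but it passed the filter on low counts through its knockout libraries only, where it is high, so its call is no support and its counts are given instead. Without it 18 of 48 tested members were higher (37.5%) and 3 lower, or 43.8% called. With library totals in place of TMM factors, 18 members were higher and 7 lower, and the share of all called genes that were higher went from 50.3% to 38.1%. Without WT ASC replicate 1, 18 were higher and 5 lower, while 35.0% of all tested genes were called.

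**Figure D1:**
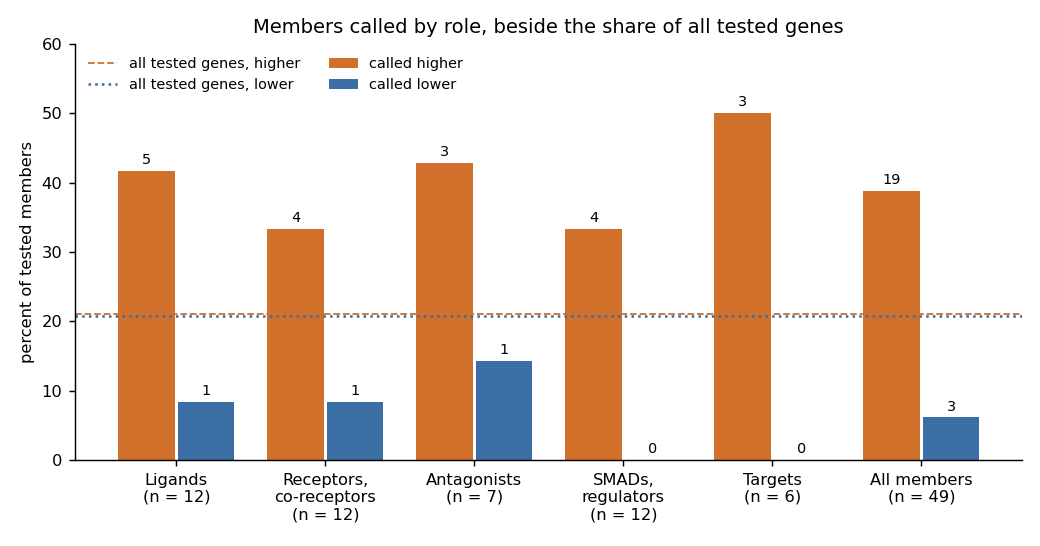
Percent of the tested members of each role, and of all 49, called higher (orange) or lower (blue) in Bdh2-knockout ASCs, with the number called above each bar; Grem1 is counted in the bars of antagonists and of all members. The dashed and dotted lines give the shares of all tested genes called higher (21.0%) and lower (20.8%). The bar of genes called higher stands above its line in every role, and the bar of genes called lower stands below its line in every role.

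By role, and without *Grem1*, the median log2 fold change was 0.56 for the 6 target genes, 0.27 for the 12 tested ligands, 0.17 for the 12 tested receptors and co-receptors, 0.15 for 6 tested antagonists and 0.10 for the 12 SMADs and regulators. The median size of the log2 fold change, whatever its sign, was 0.57 for these antagonists, 0.56 for the targets, 0.39 for the ligands, 0.19 for the receptors and co-receptors and 0.16 for the SMADs and regulators. With *Grem1* the antagonists had a median of 0.27 and a median size of 0.88. The antagonists went from -1.42 (*Lefty2*) to 1.20 (*Fst*), with *Grem1* beyond it, and the SMADs and regulators from -0.36 to 0.36.

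**Figure D2:**
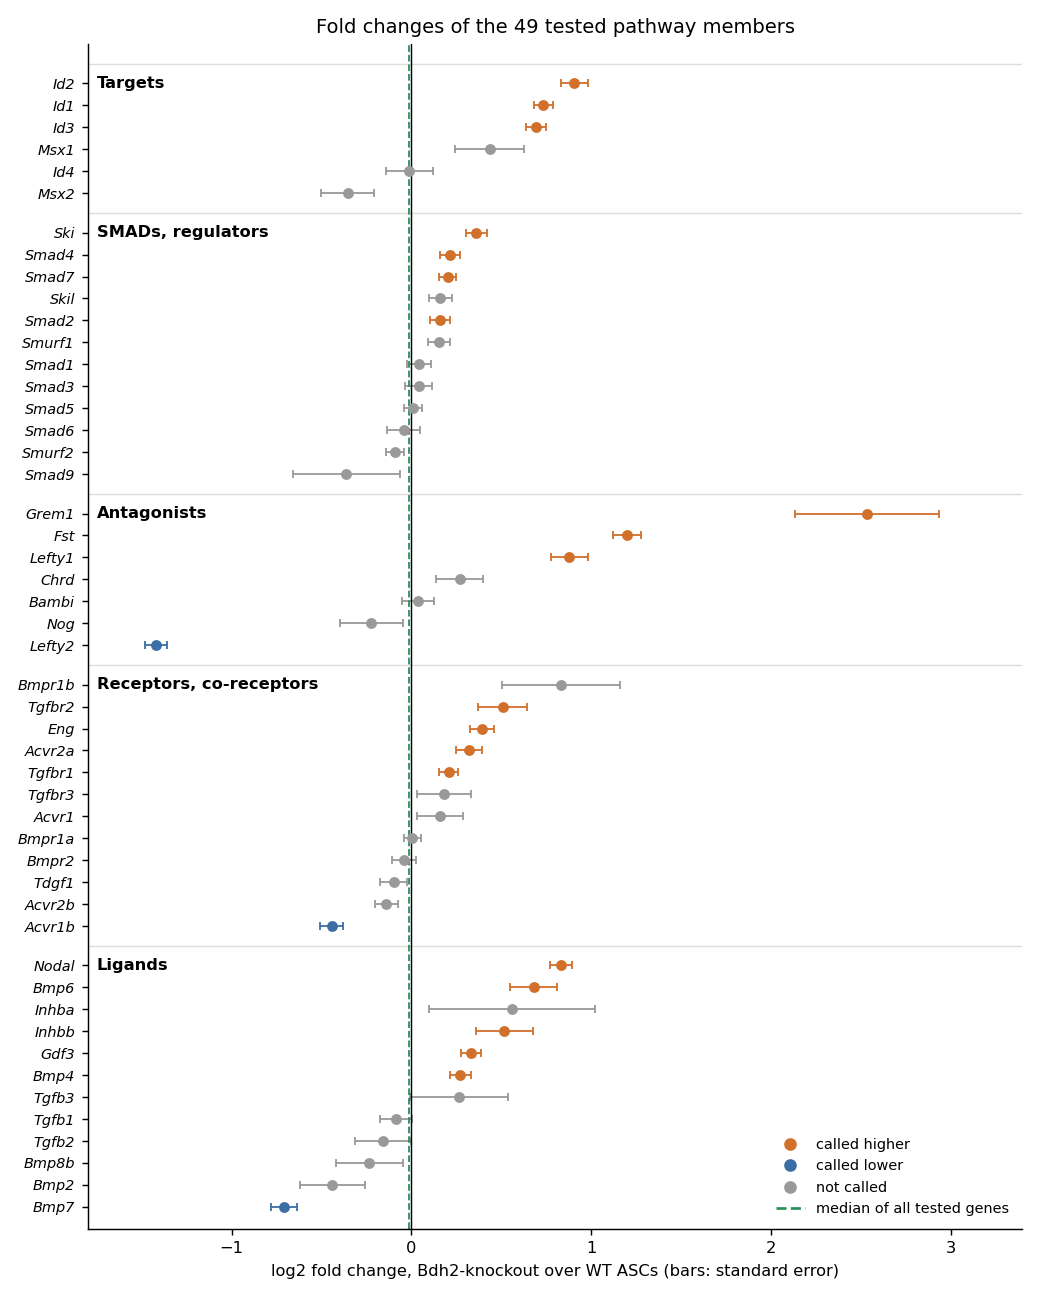
The log2 fold change of each of the 49 tested members, Bdh2-knockout over WT ASCs, by role; bars are standard errors and the dashed line is the median of all tested genes (-0.01). Lefty2 lies farthest to the left at -1.42 and Grem1 farthest to the right at 2.53, while the SMADs and their regulators gather between -0.36 and 0.36.

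Of the 12 tested ligand genes, 5 were higher in *Bdh2*-knockout ASCs and 1 was lower. *Nodal* (chromosome 10 of GRCm38, 61417972 to 61425338, plus strand), which encodes the ligand that keeps SMAD2 and SMAD3 signaling active in the epiblast, stood at 34.3, 36.8 and 40.5 CPM in WT libraries and 65.9, 66.1 and 67.1 CPM in knockout libraries. Every knockout value was above every WT value, with a log2 fold change of 0.83 (SE 0.06, edgeR adjusted p = 5.34e-07). *Gdf3*, whose product is a Nodal-like ligand that also uses Cripto, was at 58.8, 60.6 and 63.7 CPM in WT and 75.2, 81.2 and 74.4 CPM in knockout libraries (log2 fold change 0.33, SE 0.06, edgeR adjusted p = 4.15e-04). The groups of *Gdf3* did not overlap, but its difference was smaller than that of *Nodal*, and the ratio of *Nodal* to *Gdf3* in FPKM (the count scaled to the library total and to the gene length) went from 0.704 ± 0.0299 to 0.999 ± 0.0522. *Inhbb*, which encodes the beta B subunit of activin B, was low, at 3.14, 4.80 and 4.70 CPM in WT and 6.34, 5.64 and 6.21 CPM in knockout libraries (log2 fold change 0.52, SE 0.16, edgeR adjusted p = 0.0193). This call was lost with the hepatocyte covariate and without WT replicate 1 or knockout replicate 1 or 3, and the adjusted p ranged from 0.00354 to 0.145 over the alternatives. *Inhba*, the gene of the activin A subunit, was barely counted, 5 to 13 times in WT and 8 to 18 times in knockout libraries, and was not called (log2 fold change 0.56, SE 0.46, edgeR adjusted p = 0.353).

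The BMP ligand genes went in both directions. *Bmp4*, the ligand gene with the highest mean FPKM, was at 62.3, 61.2 and 68.9 CPM in WT and 75.4, 81.0 and 76.3 CPM in knockout libraries, on top of the BMP4 protein in the medium (log2 fold change 0.27, SE 0.06, edgeR adjusted p = 0.00231). *Bmp6*, the gene of a BMP also known for controlling hepcidin in the liver, was at 3.70, 3.66 and 3.64 CPM in WT and 5.66, 5.75 and 6.25 CPM in knockout libraries (log2 fold change 0.68, SE 0.13, edgeR adjusted p = 0.00110). Both genes were higher in every knockout library than in every WT library. *Bmp7*, whose product forms dimers with BMP4 or BMP2, was the ligand gene that fell, from 20.2, 19.9 and 20.1 CPM in WT to 13.0, 12.1 and 11.7 CPM in knockout libraries (log2 fold change -0.71, SE 0.07, edgeR adjusted p = 9.20e-06). Its means were 20.1 ± 0.120 CPM in WT and 12.3 ± 0.646 CPM in knockout ASCs, a distance many times the spread. In FPKM, *Bmp7* stood at 0.176 ± 0.0106 of *Bmp4* in WT and 0.0886 ± 0.00673 of it in knockout ASCs. *Bmp2*, the gene of a close relative of BMP4, had overlapping groups (4.55 ± 1.03 against 3.36 ± 0.30 CPM, edgeR adjusted p = 0.0639). It was called lower with library totals and without WT replicate 1, and its adjusted p ranged from 0.0133 to 0.247 over the alternatives. The other 4 tested ligand genes had log2 fold changes of -0.23 to 0.27 and were not called. *Bmp5* was counted at most 4 times in a library and not tested, and *Gdf1* was listed at 0 throughout. All exon bases of *Gdf1* are shared with *Cers1* on the same strand, so a read there cannot be given to either gene by position.

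**Figure D3:**
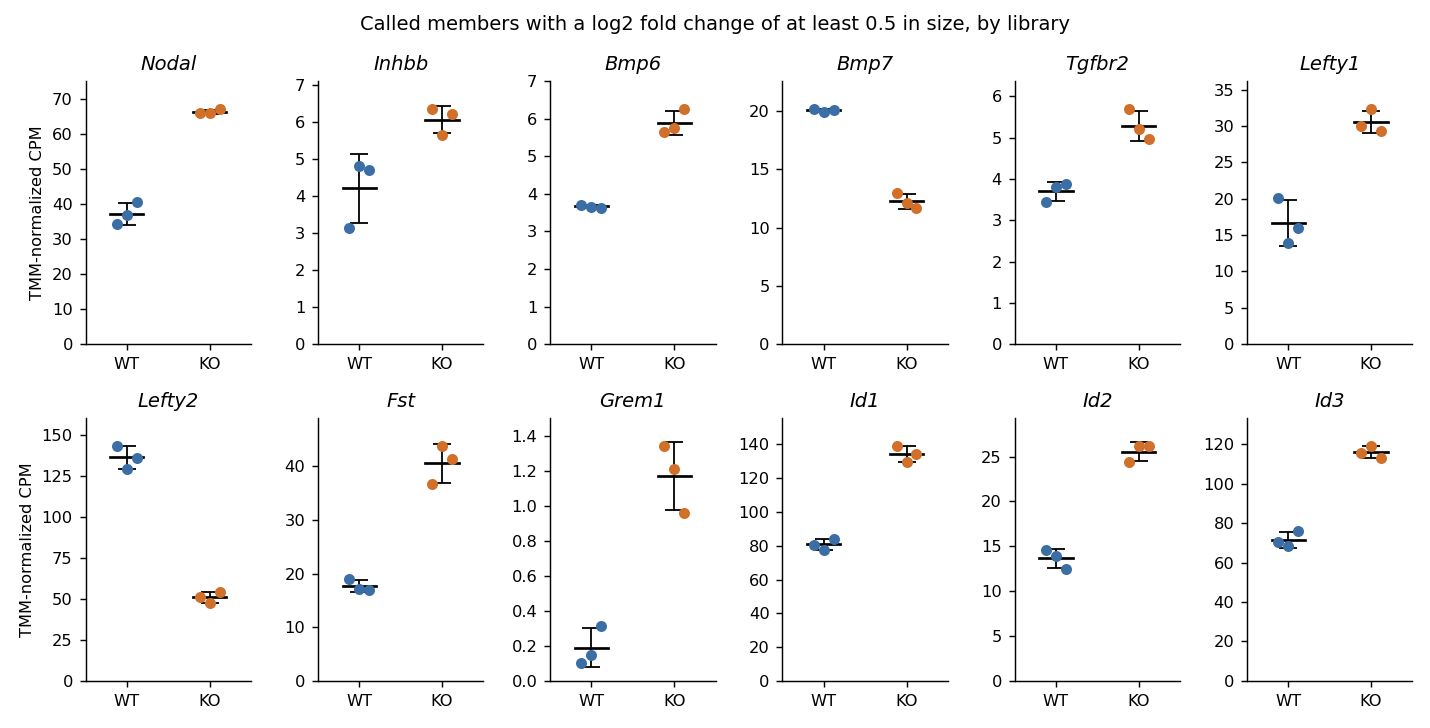
TMM-normalized CPM of the 12 called members whose log2 fold change was at least 0.5 in size, in 3 WT (blue) and 3 knockout (orange) libraries; bars are the mean and SD, and every axis starts at 0. In each panel the points of the genotypes do not overlap, and Bmp7 and Lefty2 are the panels in which the knockout points are the lower ones. The panels were chosen by call and fold change, so the lack of overlap is no further support. It also held for 52.4% of all tested genes. Grem1 is among the panels, although its call is no support.

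Among the receptors and co-receptors, 4 of 12 tested genes were higher and 1 was lower. The called share was 41.7%, as it was over all tested genes. The co-receptor gene *Tdgf1*, which encodes Cripto, had the highest level of all members, 320 ± 33.0 FPKM in WT and 287 ± 27.5 FPKM in knockout ASCs. Its libraries read 785, 919 and 763 CPM in WT and 820, 683 and 802 CPM in knockout ASCs, and the groups overlapped (log2 fold change -0.10, SE 0.08, edgeR adjusted p = 0.326). For 12.5% of its 50-base stretches the pseudogene *Tdgf1-ps1* has the same sequence, so its count is uncertain to that extent. *Acvr1b*, the gene of ALK4, the type I receptor that passes on activin and Nodal signals, was the receptor gene that fell. Its level was 75.8, 79.9 and 78.2 CPM in WT and 62.6, 51.7 and 57.7 CPM in knockout libraries, with no overlap (log2 fold change -0.44, SE 0.07, edgeR adjusted p = 1.70e-04). *Bmpr1a*, the gene of the type I receptor for BMP4, read 80.0, 81.1 and 80.1 CPM in WT and 80.8, 79.6 and 81.9 CPM in knockout libraries. The ranges overlapped (log2 fold change 0.01, SE 0.05, edgeR adjusted p = 0.932).

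*Tgfbr2*, the gene of the type II receptor for TGF-beta, was low and higher in knockout ASCs, at 3.45, 3.81 and 3.87 CPM in WT and 5.69, 5.20 and 4.96 CPM in knockout libraries (log2 fold change 0.51, SE 0.14, edgeR adjusted p = 0.00953). Its adjusted p ranged from 0.00872 to 0.0534 over the alternatives and its log2 fold change from 0.45 to 0.56. The call was lost with the hepatocyte covariate. Smaller increases without overlap were called for *Acvr2a*, an activin type II receptor gene (0.32, SE 0.07, edgeR adjusted p = 0.00343), *Tgfbr1*, the TGF-beta type I receptor gene (0.21, SE 0.05, edgeR adjusted p = 0.00837), and *Eng*, the gene of the co-receptor endoglin (0.39, SE 0.07, edgeR adjusted p = 5.52e-04), all as log2 fold changes. *Bmpr1b*, a further BMP type I receptor gene singled out after its values were seen, was counted 11, 9 and 12 times in WT and 31, 22 and 17 times in knockout libraries. Its values did not overlap, but the test was not passed (log2 fold change 0.83, SE 0.33, edgeR adjusted p = 0.0559). *Acvr1c*, the gene of the Nodal receptor ALK7, was listed at 0 in all libraries. The other 4 tested receptor genes had log2 fold changes between -0.14 and 0.18 and were not called.

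Summed per gene length over *Acvr1b*, *Acvr1c* and *Tgfbr1*, transcripts of activin and TGF-beta type I receptors went from 23.8 ± 0.492 FPKM in WT to 19.1 ± 1.39 FPKM in knockout ASCs, or 80.4%. The same sum over the BMP type I receptor genes *Acvr1*, *Bmpr1a* and *Bmpr1b* was 14.8 ± 0.321 and 14.5 ± 0.214 FPKM, or 98.3%. Over the type II receptor genes *Acvr2a*, *Acvr2b* and *Bmpr2* it was 11.8 ± 0.0291 and 11.3 ± 0.400 FPKM. These sums, and the ratios given for other genes, were formed after the single values were seen and are given with no test. FPKM are scaled to library totals without TMM factors, so small falls in such sums depend on the scaling. *Bmpr1a*, for example, read 80.4 and 80.7 CPM in WT and knockout ASCs, but 12.9 and 12.5 FPKM.

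Without *Grem1*, 2 of 6 tested antagonist genes were higher and 1 was lower, and they included *Lefty2*, the member with the largest decrease. *Lefty1* and *Lefty2* lie on chromosome 1 of GRCm38, both on the plus strand, *Lefty2* from 180893108 to 180899103 and *Lefty1* from 180935022 to 180938400. Both encode TGF-beta-like proteins that block Nodal and its co-receptor. Because the genes are close copies, their sequences are shown to let a reader judge how well reads can be told apart. Their coding parts are 1104 bases long each and agree at 1014 of these (91.8%), and the longest identical run has 140 bases. The 60 bases of the coding part with most differences, positions 34 to 93 counted from the start codon in the GENCODE M21 transcripts, differ at 18 places, marked by capitals.
Lefty1: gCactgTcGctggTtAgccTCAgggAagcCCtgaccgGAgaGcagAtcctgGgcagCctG
Lefty2: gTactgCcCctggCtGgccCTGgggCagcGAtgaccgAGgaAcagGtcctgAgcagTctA
In contrast, positions 272 to 331 are the same in both genes, and a read that lies in this stretch fits either.
Lefty1 and Lefty2: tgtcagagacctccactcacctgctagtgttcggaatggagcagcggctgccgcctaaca
Over whole transcripts, 17.9% of the 50-base stretches of *Lefty1* occur in *Lefty2*, and 11.6% of those of *Lefty2* occur in another gene. The bases after the coding part number 428 in *Lefty1* and 1293 in *Lefty2*. Each count is therefore uncertain where a read fits both genes, and how such reads were treated is not stated.

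*Lefty2* was counted 2790, 2620 and 3448 times in WT and 1412, 1299 and 1299 times in knockout libraries, although the knockout libraries were on average deeper. As CPM these are 144, 130 and 136 against 51.2, 47.6 and 54.1, and the lowest WT value is far above the highest knockout value (log2 fold change -1.42, SE 0.06, edgeR adjusted p = 7.78e-09). *Lefty1* was counted 390, 281 and 404 times in WT and 827, 882 and 704 times in knockout libraries, which is 20.1, 13.9 and 16.0 against 30.0, 32.3 and 29.3 CPM. Here every knockout value was the higher one (log2 fold change 0.88, SE 0.10, edgeR adjusted p = 2.52e-05). Neighbouring genes with similar proteins thus differed between the genotypes in opposite directions. Per gene length, *Lefty2* was at 53.3 ± 2.93 FPKM and *Lefty1* at 9.67 ± 1.87 FPKM in WT, and they came to 19.1 ± 1.29 and 17.0 ± 0.860 FPKM in knockout ASCs. The ratio of *Lefty2* to *Lefty1* in FPKM was 4.82 to 6.28 in WT and 0.992 to 1.24 in knockout libraries. Their sum was 63.0 ± 4.80 FPKM in WT and 36.2 ± 0.662 FPKM in knockout ASCs, or 57.4%. Since *Nodal* was higher at the same time, *Nodal* over the summed Lefty genes in FPKM was 0.247 to 0.315 in WT and 0.856 to 0.862 in knockout libraries.

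**Figure D4:**
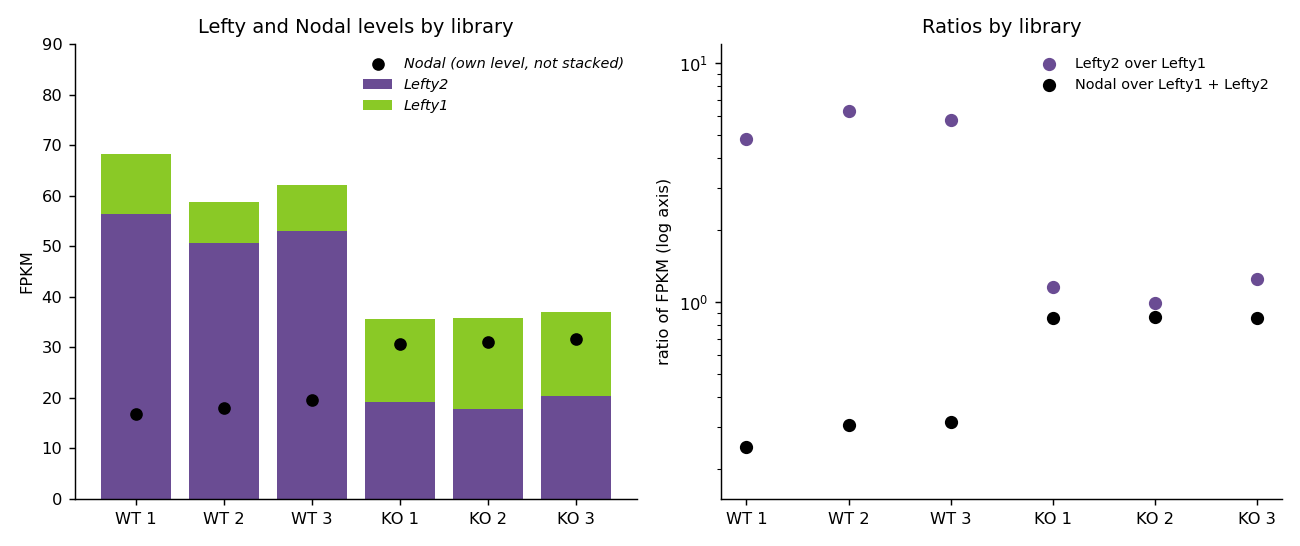
Left, FPKM of Lefty2 and Lefty1 stacked in each library, with the FPKM of Nodal as a point. Right, ratios of FPKM per library on a log axis. The stacked Lefty level is 58.7 to 68.2 FPKM in WT and 35.7 to 36.9 FPKM in knockout libraries, while the share of Lefty1 and the level of Nodal are higher in every knockout library.

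*Fst*, on the minus strand of chromosome 13 (114452290 to 114458951), encodes follistatin, which binds and neutralizes activin. It was at 18.9, 17.1 and 17.0 CPM in WT and 36.7, 43.8 and 41.3 CPM in knockout libraries, 2.29-fold higher on the group means (log2 fold change 1.20, SE 0.08, edgeR adjusted p = 2.17e-07). *Grem1* encodes gremlin, which binds BMP2, BMP4 and BMP7. It was nearly absent in WT, with 2, 3 and 8 counts, and low in knockout ASCs, with 37, 33 and 23 counts. The ratio of the summed counts, scaled to library size, was 5.89 with a 95% exact interval of 3.28 to 11.5, which covers counting error only. The fitted log2 fold change was 2.53 (SE 0.40), a value that rests on few WT counts and ranged from 2.27 to 3.17 with libraries left out. The BMP antagonist genes *Nog* (3.13 ± 0.488 against 2.69 ± 0.169 CPM, edgeR adjusted p = 0.332) and *Chrd* (4.39 ± 0.0395 against 5.29 ± 0.424 CPM, edgeR adjusted p = 0.118) were low and not called. *Bambi*, the gene of a pseudoreceptor, read 11.9 ± 1.15 and 12.2 ± 0.257 CPM and was not called either (edgeR adjusted p = 0.754). *Cer1*, the gene of the Nodal and BMP antagonist Cerberus, was listed at 0 in all 6 libraries.

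The SMADs and their regulators were all tested, and 4 of 12 were higher and 0 lower. This is 33.3% called, beside 41.7% of all tested genes. *Smad7*, the inhibitory SMAD gene that both branches induce, had the highest level of this role (27.5 ± 0.612 FPKM in WT). It stood at 120, 125 and 120 CPM in WT and 143, 139 and 139 CPM in knockout libraries (log2 fold change 0.20, SE 0.05, edgeR adjusted p = 0.00420). *Ski*, which encodes a corepressor that binds SMADs, was at 113, 111 and 125 CPM in WT and 147, 159 and 143 CPM in knockout libraries (log2 fold change 0.36, SE 0.06, edgeR adjusted p = 3.90e-04). Both genes were higher in each knockout library than in each WT library. *Smad4*, the SMAD gene shared by the branches, was at 75.4, 70.0 and 79.4 CPM in WT and 88.0, 85.9 and 87.1 CPM in knockout libraries (log2 fold change 0.21, SE 0.06, edgeR adjusted p = 0.00771), but the call was lost with the hepatocyte covariate (adjusted p from 9.19e-04 to 0.0775 over the alternatives). *Smad2*, a receptor SMAD gene of the activin branch, had a log2 fold change of 0.16 (SE 0.05, edgeR adjusted p = 0.0309) and lost its call in 8 of 13 alternatives, with adjusted p from 0.0103 to 0.308. The BMP branch SMAD genes *Smad1* (0.04, SE 0.07, edgeR adjusted p = 0.620) and *Smad5* (0.01, SE 0.05, edgeR adjusted p = 0.904) had log2 fold changes within their errors of 0. *Skil*, a relative of *Ski* and a known activin target, missed the threshold (0.16, SE 0.06, edgeR adjusted p = 0.0563) and passed it in 4 alternatives, DESeq2 among them (adjusted p from 0.00759 to 0.420). The other 5 genes of the role were not called. Of these *Smurf1*, the gene of a ubiquitin ligase of SMADs, singled out after its values were seen, was called higher with no filter and without WT replicate 3, and its relative *Smurf2* lower with library totals.

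Summed per gene length, the activin-branch SMAD genes *Smad2* and *Smad3* were at 16.5 ± 0.965 FPKM in WT and 17.2 ± 0.109 FPKM in knockout ASCs. The BMP-branch SMAD genes *Smad1*, *Smad5* and *Smad9* were at 9.74 ± 0.128 and 9.47 ± 0.265 FPKM. FPKM use library totals without TMM factors: *Smad5* read 41.3 and 41.5 CPM in WT and knockout ASCs, but 5.68 and 5.48 FPKM. The inhibitory SMAD genes *Smad6* and *Smad7* were at 30.9 ± 0.340 and 33.6 ± 0.232 FPKM, and here the libraries of the genotypes did not overlap (30.7 to 31.3 against 33.4 to 33.9 FPKM).

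Target genes were split between *Id1*, *Id2* and *Id3*, which were all higher, and *Id4*, *Msx1* and *Msx2*, none of which was called. *Id1* (chromosome 2, 152736251 to 152737410, plus strand) stood at 80.7, 77.3 and 84.2 CPM in WT and 139, 130 and 134 CPM in knockout libraries (log2 fold change 0.73, SE 0.05, edgeR adjusted p = 5.53e-07). *Id3* stood at 70.3, 68.3 and 76.3 CPM in WT and 116, 119 and 113 CPM in knockout libraries (log2 fold change 0.69, SE 0.06, edgeR adjusted p = 1.24e-06). *Id2* was lower in level, at 14.6, 13.9 and 12.5 CPM in WT and 24.4, 26.2 and 26.1 CPM in knockout libraries (log2 fold change 0.91, SE 0.08, edgeR adjusted p = 1.74e-06). Their products bind basic helix-loop-helix factors and keep them from DNA. In all 3 genes the gap between the groups was wider than either group's own range. *Id4*, the other member of the family, was at 5.26 ± 0.616 CPM in WT and 5.23 ± 0.173 CPM in knockout ASCs (edgeR adjusted p = 0.959). The homeobox gene *Msx1* was at 4.12 ± 1.34 and 5.56 ± 0.466 CPM (edgeR adjusted p = 0.0880), and *Msx2* at 6.34 ± 0.861 and 4.97 ± 0.734 CPM (edgeR adjusted p = 0.0708). Without WT replicate 1 *Msx1* was called higher and *Msx2* lower, and each was called in 1 further alternative (adjusted p from 0.0117 to 0.307 for *Msx1* and from 0.0397 to 0.280 for *Msx2*). Summed over the 4 Id genes, the level was 119 ± 4.79 FPKM in WT and 189 ± 1.86 FPKM in knockout ASCs.

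The 250 bases before RefSeq start sites were searched for the short motifs that SMAD complexes are known to bind. Windows of GRCm38.p6 were at hand for 38 of the 53 members, among them *Id2*, *Id3*, *Id4* and *Grem1* and not *Id1* or the Lefty genes. The sequences below are those of *Id2*, *Id3* and *Grem1*, printed because these genes were higher in knockout ASCs, and show each match in capitals with 10 bases on either side, on the strand of the gene: CAGAC or its complement GTCTG, the short SMAD recognition motif, and GGCGCC, the GC-rich BMP element.
Id3 (chr4:136143645-136143669, plus strand): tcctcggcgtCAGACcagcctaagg
Id3 (chr4:136143744-136143768, plus strand): acccttggcgGTCTGttttgaataa
Id2 (chr12:25096308-25096333, minus strand): aggccccctgGGCGCCcagcgcacac
Grem1 (chr2:113758853-113758877, minus strand): ctctcccaccCAGACgggcaggggc
Grem1 (chr2:113758711-113758736, minus strand): cggcggcgacGGCGCCtgaccaatgg
The matches of *Id3* and *Id2* lie before the RefSeq start site used but inside the genes as the count table lists them (136143497 to 136145755 for *Id3* and 25093799 to 25097140 for *Id2*). The window of *Id4*, which was not called, also holds 1 GGCGCC. Windows were at hand for 12 members called higher, *Id2*, *Id3* and *Grem1* among them. Of their 13 windows 7 held CAGAC or GTCTG (53.8%) and 4 held GGCGCC (30.8%), and those of *Nodal* and *Bmp4* held neither. Of 25 windows of tested members not called, 9 (36.0%) and 7 (28.0%) did. The CAGAC motif is common: it was found in 20 of 45 member windows (44.4%) and in 42.2% of all 32851 windows. GGCGCC, which is its own reverse complement, was found in 12 member windows (26.7%) and in 9.59% of all windows, whose GC content was lower (median 52.4% against 65.2% for the members). The FOXH1 core AATCCAC or its complement GTGGATT was in 0 member windows and in 2.10% of all windows. A match is a description of letters in these windows and not a binding site.

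Set against each other per gene length, the members covered a wide range of levels. *Tdgf1* was followed in WT ASCs by *Id1* (71.0 ± 2.83 FPKM), *Lefty2* (53.3 ± 2.93 FPKM) and *Id3* (40.8 ± 2.18 FPKM), and then by *Bmp4* (29.1 ± 1.75 FPKM), *Smad7* (27.5 ± 0.612 FPKM) and *Gdf3* (25.7 ± 0.890 FPKM). Of these neighbours, *Bmp4* and *Smad7* differed by less than the SD of *Bmp4*. In knockout ASCs *Id1* (114 ± 3.54 FPKM) and *Id3* (63.5 ± 1.57 FPKM) followed *Tdgf1*, and *Bmp4* (33.8 ± 1.37 FPKM), *Nodal* (31.1 ± 0.496 FPKM), *Gdf3* (31.1 ± 1.51 FPKM), *Smad7* (30.4 ± 0.304 FPKM), *Ski* (26.4 ± 1.44 FPKM) and *Smad4* (23.0 ± 0.240 FPKM) all stood above *Lefty2*.

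**Figure D5:**
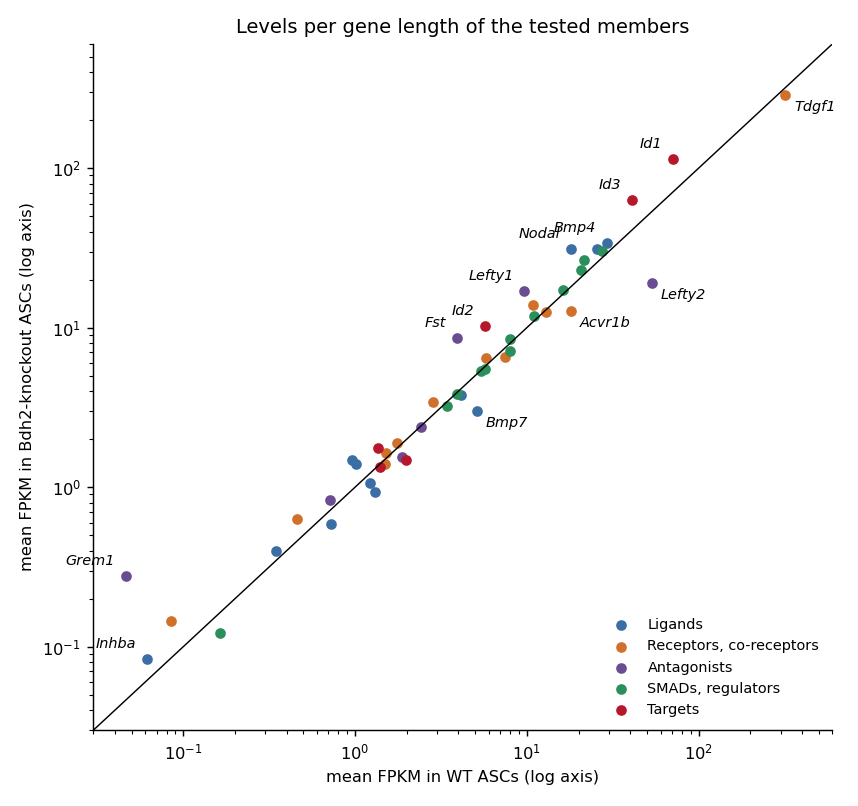
Mean FPKM of the 49 tested members in WT (horizontal) and Bdh2-knockout ASCs (vertical), both on log axes, coloured by role; the line marks equal levels. Tdgf1 is highest in both genotypes, Lefty2 lies farthest below the line, and Grem1, near the lower end, lies farthest above it.

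Further genes of the pathway were taken from 6 lists with 108 genes in all, of which 86 were tested, 31 were higher and 6 lower (43.0% called, median log2 fold change 0.09). This share is near the 41.7% of all tested genes, of which 21.0% were higher and 20.8% lower, and the counts of the single lists below are to be read against these shares. Among other ligands 1 of 7 was higher and 2 were lower. *Bmp8a*, a BMP gene that shares 8.91% of its stretches with other genes, rose (log2 fold change 1.03, SE 0.24, edgeR adjusted p = 0.00442), and the stress-induced ligand gene *Gdf15* fell (-0.93, SE 0.10, edgeR adjusted p = 1.85e-05). Of 13 genes that process or store ligands 7 were higher and 0 lower. They included *Pcsk6*, the gene of a convertase that cleaves the Nodal precursor, at 66.0 ± 3.28 CPM in WT and 87.5 ± 1.64 CPM in knockout ASCs (log2 fold change 0.41, SE 0.05, edgeR adjusted p = 6.90e-05), and the fibrillin genes *Fbn1* (0.81, SE 0.09) and *Fbn2* (0.76, SE 0.19), of whose exon bases 20.1% and 0.976% overlap genes on the opposite strand.

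Of 7 other receptor genes 2 were higher, *Rgma*, which encodes a BMP co-receptor of the repulsive guidance family (log2 fold change 0.97, SE 0.15, edgeR adjusted p = 2.48e-04), and *Nrros*, whose product holds latent TGF-beta (0.64, SE 0.17, edgeR adjusted p = 0.00831). Of 8 other antagonist genes 4 were higher and 0 lower. *Fstl1*, the most abundant of those named, was at 228 ± 2.15 CPM in WT and 328 ± 9.98 CPM in knockout ASCs (log2 fold change 0.53, SE 0.05, edgeR adjusted p = 2.73e-06). *Htra1*, the gene of a secreted protease, had a log2 fold change of 1.14 (SE 0.09, edgeR adjusted p = 1.13e-06), and *Pmepa1*, a TGF-beta target whose product sequesters receptor SMADs, of 0.58 (SE 0.09, edgeR adjusted p = 1.54e-04). These differences had the direction of *Fst* and *Lefty1* and not that of *Lefty2*.

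Among 31 tested partners of SMADs 7 were higher and 3 lower, a share of 32.3% called. The coactivator gene *Crebbp* was at 43.8 ± 1.68 CPM in WT and 73.9 ± 2.43 CPM in knockout ASCs (log2 fold change 0.75, SE 0.05, edgeR adjusted p = 4.42e-07). *Ctdspl*, a phosphatase gene, was higher (0.52, SE 0.16, edgeR adjusted p = 0.0192), and *Wwp1*, the gene of a ubiquitin ligase, was lower (-0.35, SE 0.06, edgeR adjusted p = 4.42e-04). Of 20 other target genes 10 were higher and 1 lower. *Zfp423*, which encodes a zinc finger cofactor of BMP-activated SMADs, was at 27.7 ± 1.46 CPM in WT and 67.3 ± 3.56 CPM in knockout ASCs (log2 fold change 1.28, SE 0.06, edgeR adjusted p = 1.36e-08). *Ctgf*, a matricellular target gene of TGF-beta, was at 22.2 ± 1.98 and 41.9 ± 2.11 CPM (0.91, SE 0.07, edgeR adjusted p = 8.93e-07), with 23.2% of its exon bases overlapped by *Gm15270*. The transcription factor gene *Runx1* was lower in level, at 4.91 ± 0.998 and 9.03 ± 0.139 CPM (0.88, SE 0.13, edgeR adjusted p = 2.22e-04). All 3 were higher in every knockout library than in every WT library.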

How the data were processed

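RNA of 3 WT and 3 *Bdh2*-knockout ASC samples had been made into libraries with the Illumina TruSeq RNA kit, which does not mark strand. The authors trimmed the reads, mapped them to GRCm38 with HISAT2 (2.0.5 in the submitters' processing notes), counted them on genes with FeatureCounts and deposited raw counts per gene, not normalized. How reads with several matches were counted is not given in the sources used here. Counts were tested here in R 4.3.3 with edgeR 4.0.16 (TMM, filterByExpr defaults, quasi-likelihood test, genotype as the only term, Benjamini-Hochberg over 16758 genes, threshold 0.05). Each SE, also in the figure of fold changes, is derived: the size of the log2 fold change over the square root of the test's F statistic. CPM are TMM-normalized, and FPKM divide the count by the library total and the gene length of the table. Exons and transcripts are those of GENCODE M21, which holds 99.6% of the identifiers. Replicates of a genotype differed by more than counting noise (chi-square per gene 4.10 to 9.70). The functions were tested on simulated counts.

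The members, the other lists and the hepatocyte covariate were chosen with earlier results of these data known. Values in all libraries were given for members that were called and whose log2 fold change was 0.5 or more in size, or among the 3 highest mean FPKM of their role. Up to 4 other members were named per role by rule, others where said or where a sum or an alternative concerns them, after their values were seen. From the other lists the 3 called genes with the largest fold changes and a mean normalized count of at least 50 were named. Alternatives were DESeq2 1.42.0, median-of-ratios factors, library totals, no filter, a mean count of at least 50, a replicate block, the covariate and each library left out. Tables and plots used Python 3.11.15, pandas 2.3.3 and matplotlib 3.10.9.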

Additional observations from a re-analysis of the deposited data

How the results depend on the processing

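Of the 21 called members without *Grem1*, 17 kept their call and direction under all 13 alternatives, and 4 (*Inhbb*, *Smad2*, *Smad4* and *Tgfbr2*) lost the call under at least 1, while 0 reversed. *Bdh2* kept its call throughout. With library totals in place of TMM, 2 ligands, 2 receptors or co-receptors, 1 SMAD or regulator and 1 target gene were lower. With the hepatocyte covariate 15 members were higher, against 19 without it and the fewest of any alternative, and 3 lower. Of the SMADs and regulators 2 were higher, against 4. The share called of all tested genes also went down, from 41.7% to 30.9%. With 1 library left out, 1 to 2 ligands and 0 to 1 target genes were lower, with the higher counts reached without WT ASC replicate 1. Leaving libraries out gave 17 to 20 members higher and 3 to 5 lower, while 32.6% to 43.0% of all tested genes were called. No pairing by replicate number was seen, though so few libraries cannot exclude it. Deviations of same-numbered libraries correlated by 0.031 on average (-0.158 to 0.206). Those of libraries with different numbers correlated by -0.016 (-0.301 to 0.304). With the replicate block 18 members were higher and 3 lower, and 38.5% of all tested genes were called. DESeq2 gave 19 higher and 3 lower, with 36.4% of all tested genes called. Of the members that were not called, 7 were called in at least 1 alternative (*Acvr2b*, *Bmp2*, *Msx1*, *Msx2*, *Skil*, *Smurf1* and *Smurf2*), and 10 changed sign in at least 1 alternative. With library totals, log2 fold changes were -0.052 for *Bmpr1a*, -0.019 for *Bambi*, -0.014 for *Smad1*, -0.016 for *Smad3* and -0.049 for *Smad5*. With a mean count of at least 50 they were -0.0061 for *Bmpr1a* and -0.0029 for *Smad5*, with the covariate -0.0032 for *Bmpr1a* and -0.026 for *Smad3*, and with no filter 0.0055 for *Id4*. With libraries left out they ranged from -0.18 to 0.0079 for *Tgfb1*, -0.33 to 0.0058 for *Tgfb2*, -0.078 to 0.016 for *Bmpr2*, -0.027 to 0.11 for *Bambi*, -0.0075 to 0.14 for *Smad3*, -0.012 to 0.032 for *Smad5*, -0.11 to 0.0089 for *Smad6* and -0.10 to 0.041 for *Id4*. The cause was not tested. Depth limits what can be said of *Grem1*, *Inhba*, *Bmp5* and *Bmpr1b*, and near-identical sequence what can be said of the Lefty genes and *Tdgf1*. The fits without 1 library of a genotype assume that the remaining libraries vary alike.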
